A study of Homo sapiens with 12 samples.

Results

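Cancer-testis antigen genes are switched off in most adult tissues outside the testis and are switched on in many tumors. The genes described here are MAGEA3, MAGEA4, MAGEA6, MAGEA10, MAGEA12, PAGE1, XAGE1A, XAGE1B and PRAME, 9 genes that were chosen by their measured values in these same libraries, so their differences between groups are given as a description and carry no test. For each symbol the transcripts of the deposited table were summed, a missing mark counting as 0. Of the 9 genes, 6 were measured (MAGEA3, MAGEA12, PAGE1, XAGE1A, XAGE1B and PRAME), out of 24559 gene symbols in all. The other 3 (MAGEA4, MAGEA6 and MAGEA10) were not analysed here. Every transcript in the table had a value above 0 in at least 1 BT549 library, so a transcript that BT549 cells lack was not measured in the other cell lines.

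The study asked what TRMT112, a small protein that activates several RNA and protein methyltransferases, does to the mRNAs under translation in triple-negative breast cancer, which lacks the estrogen and progesterone receptors and ERBB2 amplification. RNA was taken from the polysome fractions of 3 established cell lines and sequenced. The 12 libraries made up 6 groups with 2 libraries in each. MDA-MB-231 and SUM159 cells were compared with a knockdown (KD) of TRMT112, made with an shRNA vector and puromycin selection, against their controls, called empty vector (EV) in the labels and a non-silencing shRNA in the methods. BT549 cells were compared with overexpression (OE) of a TRMT112 open reading frame, selected with G418, against EV. Cells of all groups were treated with cycloheximide before lysis. No library of total RNA was used here, so a higher level of an mRNA and a higher share of it on polysomes cannot be told apart. Nothing in the sources says that the 2 libraries of a group came from separate cultures, so the spread between them may be technical. In bulk RNA, fewer cells that express a gene and less of its RNA per cell cannot be told apart.

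TRMT112 itself followed the labels in all 3 lines. Its normalized counts (expected counts scaled by TMM, a correction for library size and composition) were 4147 and 3938 in MDA-MB-231 EV against 1764 and 1682 in KD, 6332 and 6566 in SUM159 EV against 3909 and 3699 in KD, and 3076 and 3087 in BT549 EV against 4286 and 4319 in OE. Libraries held 22954226 to 27434677 counts. Rank correlations across genes were 0.995 to 0.997 between the libraries of a group, 0.99 between KD and EV of MDA-MB-231, 0.965 to 0.966 between those of SUM159 and 0.902 between OE and EV of BT549. VIM, the mesenchymal filament gene, was high in all 6 groups (17136 to 47402 normalized counts). The epithelial keratin KRT8 was at 4927 to 8525 in MDA-MB-231 and SUM159 and at 9.90 and 15.1 in BT549. KRT18 went the same way, at 4515 to 9774 and at 6.05 and 5.59. Other epithelial genes did not. CD24 was at 2997 and 5433 in BT549 EV and OE and at 125 to 2300 elsewhere. CDH1 was at 57.2 and 20.7 in BT549 EV and OE and at most 7.13 elsewhere. EPCAM was at 70.9 and 54.2 in MDA-MB-231 EV and KD and at most 2.52 elsewhere. ERBB2 stood at 1412 to 3360 in the 6 groups. In BT549, VIM stood at 47402 ± 101 in EV and 17136 ± 445 in OE, and the collagen gene COL1A1 at 2019 ± 5.15 and 56239 ± 1451 (SD, n = 2 each), and the part of these differences in the BT549 results was not tested. SYCP3, a marker of meiotic germ cells, had at most 4 counts in any group, and PTPRC, which marks leukocytes, had at most 22, the highest being in SUM159 KD.

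The 6 genes belong to different families. MAGEA3 and MAGEA12 encode type I MAGE proteins, which bind RING-type ubiquitin ligases. MAGEA3 and its near-copy MAGEA6 pair with TRIM28 and direct the ligase to new targets, among them the AMPK subunit PRKAA1. PAGE1 and the XAGE1 genes encode small, X-linked members of the GAGE-related families, and PRAME encodes a leucine-rich repeat protein that serves as a substrate receptor of CUL2 ligases and represses retinoic acid receptor signaling. In normal somatic cells the promoters of such genes are kept silent by CpG methylation, and several of them come on when DNA methylation is lost.

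Of the 6 genes, 5 lie on the X chromosome (GRCh38, GENCODE 44). MAGEA3 lies at chrX:152698767-152702347 on the plus strand and MAGEA12 at chrX:152733757-152737669 on the plus strand. PAGE1 lies at chrX:49687447-49695984 on the minus strand, XAGE1A at chrX:52495808-52500812 on the plus strand and XAGE1B at chrX:52512077-52520803 on the minus strand. PRAME is the only autosomal gene of the 6, at chr22:22547701-22559361 on the minus strand. XAGE1A and XAGE1B are near-identical copies: all 969 windows of 150 bases in XAGE1A transcripts also occur in XAGE1B transcripts, so reads cannot be assigned to one or the other and their sum is the firmer measure. MAGEA3 shares 27.8% of its windows with MAGEA6, so part of its counts could belong to that copy, while MAGEA12, PAGE1 and PRAME share no such window with another of the 9 genes.

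The regions just upstream of these genes are shown because the silencing of the family acts on promoter CpG sites. Each line gives the 250 bases before an annotated start from RefSeq (GRCh38.p14), read 5′ to 3′ on the strand of the gene, with CG dinucleotides in capitals. The regions are chrX:49695985-49696234 for PAGE1 (minus strand), chrX:52495558-52495807 for XAGE1A (plus strand), chrX:152698544-152698793 for MAGEA3 (plus strand) and chrX:152733507-152733756 for MAGEA12 (plus strand). The end of the MAGEA3 region runs past the gene start of GENCODE 44 given above.
PAGE1: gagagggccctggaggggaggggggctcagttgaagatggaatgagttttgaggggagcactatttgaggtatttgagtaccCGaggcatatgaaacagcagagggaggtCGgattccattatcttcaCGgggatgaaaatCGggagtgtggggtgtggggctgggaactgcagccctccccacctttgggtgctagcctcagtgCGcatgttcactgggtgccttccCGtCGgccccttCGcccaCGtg
XAGE1A: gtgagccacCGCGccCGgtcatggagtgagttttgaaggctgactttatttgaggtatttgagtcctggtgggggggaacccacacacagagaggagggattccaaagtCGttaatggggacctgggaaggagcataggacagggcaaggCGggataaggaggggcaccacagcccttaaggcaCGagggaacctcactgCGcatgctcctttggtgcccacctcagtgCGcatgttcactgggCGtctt
MAGEA3: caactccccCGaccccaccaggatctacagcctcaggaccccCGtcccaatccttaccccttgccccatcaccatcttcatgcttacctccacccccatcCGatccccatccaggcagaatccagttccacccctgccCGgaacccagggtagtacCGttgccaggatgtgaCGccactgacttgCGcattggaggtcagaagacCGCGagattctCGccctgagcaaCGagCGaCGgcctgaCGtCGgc
MAGEA12: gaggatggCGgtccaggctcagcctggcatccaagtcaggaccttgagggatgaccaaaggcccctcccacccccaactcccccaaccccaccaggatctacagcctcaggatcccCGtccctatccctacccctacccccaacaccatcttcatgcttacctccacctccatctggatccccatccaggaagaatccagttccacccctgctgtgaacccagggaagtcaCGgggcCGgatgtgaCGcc
These 4 regions hold 9, 9, 15 and 5 CG dinucleotides, beside a median of 11 over 35116 promoter regions of that length (quartiles 3 and 23). The table lists a second start for XAGE1A and for MAGEA12, and the 250 bases before these hold 14 and 13. PAGE1 and XAGE1A share an unbroken run of 23 bases, cctcagtgCGcatgttcactggg. The MAGEA3 region is identical to that of MAGEA6 over all 250 bases, and MAGEA3 and MAGEA12 share a run of 27 bases, accccaccaggatctacagcctcagga. The letters TGCGCAT, searched on both strands and chosen after the regions had been read, occur in 2.45% of all promoter regions. Of the 8 genes with a listed promoter, 6 hold them in at least 1 region (PAGE1, XAGE1A, XAGE1B, MAGEA3, MAGEA4 and MAGEA6), some being copies of each other. Several of these genes have more than 1 region, so the share of regions and the count of genes are unlike measures. The letters CCGGAA, again on both strands, occur in 14.5% of the regions and in at least 1 region of PRAME, MAGEA3 and MAGEA6. The letters CCGGAT occur in 5.85% of the regions and in at least 1 region of MAGEA4 and MAGEA12.

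The cell lines differed widely in which of the 6 genes reached polysomes. MDA-MB-231 EV cells held the XAGE1 pair and none of the other 4 genes, SUM159 EV cells held the XAGE1 pair with MAGEA12 and MAGEA3, and BT549 EV cells held PRAME, with at most 13.1 normalized counts per library of any other member. On a per-length scale (TPM, transcripts scaled by length and library total), XAGE1A stood at 1119 ± 22.6 (SD, n = 2) in MDA-MB-231 EV and 779 ± 21.7 (n = 2) in SUM159 EV, above 99.5% and 99.1% of all symbols. MAGEA12 stood at 74.0 ± 0.56 TPM and MAGEA3 at 29.8 ± 1.77 TPM in SUM159 EV, and PRAME at 7.30 ± 0.77 TPM in BT549 EV (SD, n = 2 each). Summed over the 6 genes, TPM in EV libraries was 2086 and 2175 in MDA-MB-231, 1354 and 1401 in SUM159, and 8.96 and 10.2 in BT549. XAGE1 reads made up 100% of the members' counts in both MDA-MB-231 EV libraries, 77.7% and 78.7% in SUM159 EV, and at most 7.0% in BT549 EV.

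**Figure D1:**
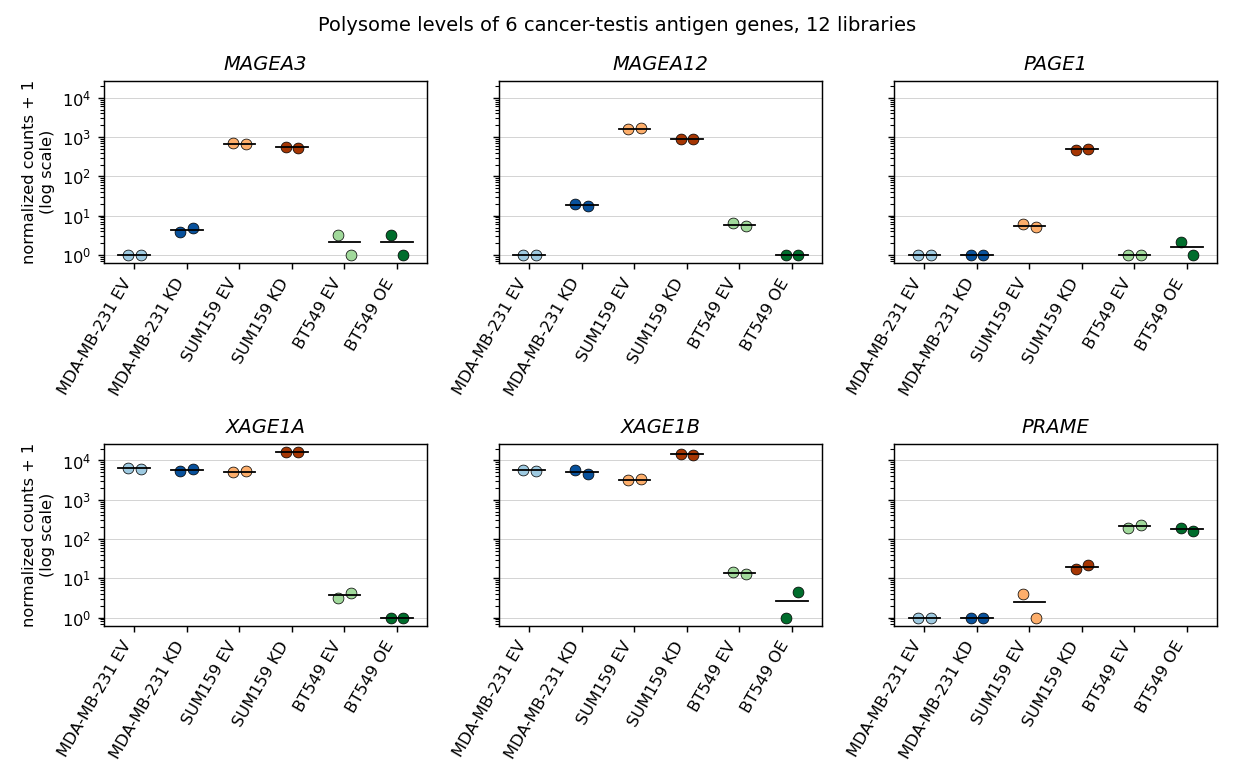
Normalized counts plus 1 (log scale) of the 6 measured cancer-testis antigen genes in each of the 12 libraries, by group; points are libraries and black lines are group means. PAGE1 sits at 4.02 and 5.05 normalized counts in SUM159 EV and at 479 and 494 in SUM159 KD, while the XAGE1 genes are high in MDA-MB-231 and SUM159 and near 0 in BT549.

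In SUM159 cells, the knockdown libraries held more PAGE1, XAGE1A, XAGE1B and PRAME and less MAGEA12 and MAGEA3 than the EV libraries. Of the 6 genes, 4 were at least 2-fold apart, all 4 of them higher in KD, counting each group mean as no lower than 3 counts per library. By the same rule 17.4% of the 16538 genes tested were 2-fold apart in this comparison. The members were chosen on these values, so nothing is read from that count. A few markers of other cell types were also higher in SUM159 KD. PTPRC had 2 counts in EV and 22 in KD, and the endothelial gene PECAM1 stood at 24.7 ± 0.64 and 95.8 ± 10.0 normalized counts (SD, n = 2 each), and their part in the values of the members was not tested. Among epithelial genes, CD24 stood at 125 ± 13.2 in EV and 2300 ± 28.3 in KD and KRT8 at 4927 ± 24.0 and 8525 ± 303 (SD, n = 2 each), while KRT18 stood at 4933 ± 285 and 4515 ± 198 and EPCAM had 5 and 4 counts. The germ cell gene SYCP3 had 3 counts in EV and 0 in KD.

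PAGE1 showed the widest difference. Its normalized counts were 5.05 and 4.02 in SUM159 EV and 479 and 494 in SUM159 KD. The KD libraries lay 107-fold above the EV libraries (95% counting interval of the ratio 56.7 to 237, exact binomial, counting error only). In TPM the gene stood at 0.52 ± 0.09 in EV and at 50.9 ± 1.56 in KD (SD, n = 2 each), the latter above 86.9% of all symbols. PAGE1 was at 0 counts in all 4 MDA-MB-231 libraries, which allows up to 3 counts in each, and had 1 count in 1 BT549 library.

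The XAGE1 pair was the most abundant, and its KD libraries lay over 3-fold above the EV libraries. XAGE1A stood at 4999 and 5266 normalized counts in SUM159 EV and at 16130 and 16418 in KD, with a fitted log2 fold change of 1.66 (SE 0.04). XAGE1B stood at 3156 and 3301 in EV and at 14950 and 13981 in KD, with a log2 fold change of 2.16 (SE 0.07). Summed over the copies, the pair stood at 8362 ± 292 normalized counts in EV and 30739 ± 481 in KD (SD, n = 2 each), a ratio of 3.68 and a log2 fold change of 1.88 (SE 0.03). XAGE1A was given 61.3% and 61.5% of the pair's counts in the EV libraries but 51.9% and 54.0% in the KD libraries, a split that the near-identical sequences do not let one read. In SUM159 KD, XAGE1A reached 2288 ± 41.5 TPM (SD, n = 2), above 99.8% of all symbols, and the pair held 93.9% and 94.1% of the members' counts.

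PRAME was low in SUM159. It had 3 and 0 counts in EV and 16 and 24 in KD, a ratio of normalized counts of 12.2 with a counting interval of 3.95 to 62.6, and a log2 ratio of 2.61 with EV counted at the floor of 3 counts per library. Its highest level in SUM159 KD, 20.8 normalized counts, stayed below the lowest BT549 library, at 157.

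The MAGE-A genes were lower in KD. MAGEA12 stood at 1640 and 1659 normalized counts in SUM159 EV and at 893 and 907 in KD, and its fitted log2 fold change was -0.87 (SE 0.07). MAGEA3 stood at 698 and 652 in EV and at 559 and 541 in KD, with a log2 fold change of -0.30 (SE 0.11). The EV and KD libraries did not overlap for either gene. The share of all genes without overlap in this comparison is not given, so nothing is read from that.

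**Figure D2:**
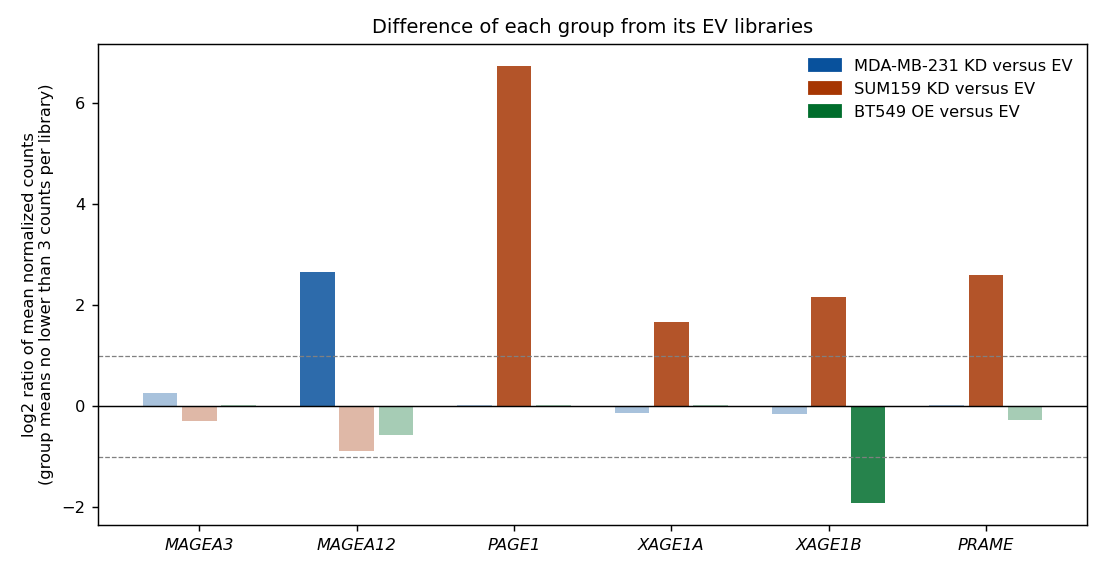
Log2 ratio of mean normalized counts, KD or OE over EV, for the 6 members in the 3 cell lines, with group means counted as no lower than 3 counts per library; bars at least 2-fold from 0 (dashed lines) are drawn in full color and the others pale. PAGE1, XAGE1A, XAGE1B and PRAME are over 2-fold higher in SUM159 KD, MAGEA12 in MDA-MB-231 KD, and XAGE1B is lower in BT549 OE.

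In MDA-MB-231 cells, the abundant XAGE1 pair was at similar levels in EV and KD and MAGEA12 appeared at a low level in the knockdown libraries. XAGE1A stood at 6464 and 6244 normalized counts in EV and at 5499 and 6186 in KD, with a log2 fold change of -0.12 (SE 0.04). XAGE1B stood at 5743 and 5438 in EV and at 5581 and 4440 in KD, so that its EV and KD libraries overlapped. Its log2 fold change was -0.16 (SE 0.06), and 0.000354 without the second KD library. The pair summed to 11945 ± 372 in EV and 10853 ± 322 in KD (SD, n = 2 each), a log2 fold change of -0.14 (SE 0.03). PAGE1 and PRAME were at 0 counts in all 4 libraries.

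MAGEA12 had 0 and 0 counts in MDA-MB-231 EV and 20 and 17 in KD, at least 6.31-fold higher against a floor of 3 counts per library. MAGEA3 had 0 and 0 counts in EV and 3 and 4 in KD, too few for a fold. Of the 6 genes, 1 was therefore at least 2-fold apart in MDA-MB-231, beside 5.54% of all genes tested. Both genes were abundant in SUM159, where MAGEA12 had 886 to 1650 counts per library. Of 47 genes, chosen after the values were seen, with at least 300 counts in each SUM159 library and 0 in both MDA-MB-231 EV libraries, 9 had counts in the first KD library and 8 in the second. Those counts summed to 39 and 32, of which 16 and 11 came from genes other than MAGEA12 and MAGEA3. MAGEA12 and MAGEA3 headed that list, with 0.71% and 0.278% of their SUM159 counts, and among the other 10 genes with counts the share ran from 0.0174% (HOXC10) to 0.233% (TCF4, 5 counts). The part of such counts in the MAGEA12 value was not tested.

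In BT549 cells, PRAME was the only member above trace level. It stood at 196 and 227 normalized counts in EV and at 192 and 157 in OE, with a log2 fold change of -0.28 (SE 0.22). The EV and OE libraries did not overlap, the highest OE value lying just under the lowest EV value. With 2 libraries in each group and no share of all genes to compare with, nothing is read from that. How the counts of PRAME were divided among its transcripts differed between libraries of a group, and so only the sum is given.

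The other members were at or near 0 in BT549. XAGE1A and XAGE1B together had 14 and 14 counts in EV and 0 and 3 in OE. MAGEA12 had 5 and 4 counts in EV and 0 and 0 in OE, at least 1.47-fold lower. Of the 6 genes, 1 was at least 2-fold apart, beside 32.4% of all genes tested. This was XAGE1B, with 12 and 11 counts in EV and 0 and 3 in OE, a ratio of normalized counts of 0.134 with a counting interval of 0.0255 to 0.439, and a log2 ratio of -1.91 with OE counted at the floor. With at least 300 counts in each MDA-MB-231 and SUM159 library and at most 20 in each BT549 library there were 35 genes, XAGE1A and XAGE1B among them. Over those other than the members, BT549 libraries held 167 and 183 counts in EV and 179 and 151 in OE. The part of counts from genes abundant in the other lines in these low values was not tested.

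Across the 6 groups, each member had its own order. MAGEA12 and MAGEA3 were highest in SUM159 EV, then in SUM159 KD, then in MDA-MB-231 KD. XAGE1A ran from SUM159 KD through MDA-MB-231 EV, MDA-MB-231 KD and SUM159 EV to the BT549 groups, with no overlap between neighbors in that order. XAGE1B had the same order, with MDA-MB-231 EV and KD overlapping. PAGE1 was highest in SUM159 KD, and its groups other than those of SUM159 overlapped, as did the groups of PRAME below SUM159 KD. Groups of 2 libraries often separate, so these orders are description only.

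The other cancer-testis genes were taken from a list of 152 symbols that leaves out the 9 members. Of these, 37 had a transcript in the table, which holds only transcripts above 0 in at least 1 BT549 library. The rest were not measured. Of the 37, 24 had enough counts to be tested with edgeR (quasi-likelihood, Benjamini-Hochberg adjustment over all 16538 genes). In SUM159 KD, 5 of the 24 rose and 7 fell at an adjusted p under 0.05, beside 28.6% and 31.4% of all genes. In MDA-MB-231 KD, 5 rose and 2 fell, beside 21.2% and 16.5% of all genes. In BT549 OE, 6 rose and 7 fell, beside 35.6% and 35% of all genes. The median log2 fold change of the 24 genes was -0.38 in SUM159, 0 in MDA-MB-231 and 0.01 in BT549, and -0.23, 0.04 and 0.02 when group means were counted as no lower than 3 counts per library, beside -0.07, 0.03 and 0.02 over all genes tested on that scale. A gene at that floor in both groups takes 0.04 in MDA-MB-231 and 0.02 in BT549. The list medians in these lines, and the median of all genes in BT549, equal those values, so no change is read from them.

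Of the 8 X-linked genes tested, 3 rose and 3 fell in SUM159 KD, beside 28.6% and 31.4% of all genes. SSX1, a transcriptional corepressor of the SSX family, stood at 130 and 141 normalized counts in EV and at 3078 and 3011 in KD, a 22.5-fold difference (log2 fold change 4.49, SE 0.10, adjusted p = 2.1e-19). MAGEA11, a MAGE-A gene that acts as a coregulator of the androgen receptor, stood at 66.6 and 95.5 in EV and at 363 and 362 in KD (log2 fold change 2.16, SE 0.20, adjusted p = 1.1e-08). MAGEB2, a further type I MAGE gene, had 1 and 2 counts in EV and 18 and 25 in KD (adjusted p = 2.6e-06). It had 7147 and 9082 counts over the MDA-MB-231 EV and KD libraries. The part of counts from that line in these low values was not tested. SSX1, MAGEA11 and, at low counts, MAGEB2 were higher in SUM159 KD, as were the members PAGE1 and XAGE1. The members MAGEA12 and MAGEA3 were lower, as were 3 of the 8 X-linked genes.

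Of the 4 SPANX genes tested, which encode X-linked sperm nucleus proteins, 3 fell in the same comparison, beside 31.4% of all genes. SPANXB1 stood at 694 and 766 normalized counts in EV and at 143 and 150 in KD (log2 fold change -2.32, SE 0.11, adjusted p = 4.3e-14). SPANXC, a near-copy within the family whose reads may be shared with others, had 37 and 32 counts in EV and 0 and 4 in KD (adjusted p = 0.00015). SPANXD had 94 counts over both EV libraries and 29 over both KD libraries (adjusted p = 0.0078), a call lost under DESeq2 (adjusted p = 0.077) and without the first EV library or either KD library. SPANXA1 did not pass the test, with 52 and 44 counts over the libraries of EV and KD (log2 fold change -0.35, SE 0.53, adjusted p = 0.60). ACRBP, an acrosome protein gene, had 15 and 17 counts in EV and 0 and 0 in KD (adjusted p = 0.00029).

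In MDA-MB-231 KD, SPANXA1 stood at 26.3 and 4.57 normalized counts in EV and at 117 and 116 in KD (log2 fold change 2.91, SE 0.48, adjusted p = 4.7e-05), with the EV libraries far apart, and its log2 fold change was 2.14 without the second EV library and 4.63 without the first. MAGEB2 was abundant in this line and rose from 3311 ± 69.9 to 4313 ± 65.1 normalized counts (SD, n = 2 each, log2 fold change 0.38, adjusted p = 2.7e-07). SPA17, a sperm surface protein gene, rose by 0.55 on the log2 scale (SE 0.07, adjusted p = 5.2e-07), and SPANXB1 fell by 0.49 (SE 0.12, adjusted p = 0.0026). SSX1 had 0 and 0 counts in EV and 11 and 2 in KD (adjusted p = 0.00365), a call that was lost without the first KD library. It had 6534 counts over the SUM159 KD libraries, and the part of counts from that line in these values was not tested. CCDC110 had 0 and 1 counts in EV and 5 and 7 in KD (adjusted p = 0.032), lost on leaving out any of the 4 libraries.

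LY6K, a GPI-anchored Ly6 family gene, was abundant in EV at 13084 and 12564 normalized counts and stood at 1836 and 1642 in OE, 7.37-fold lower (log2 fold change -2.88, SE 0.05, adjusted p = 3.0e-24). DDX43, a DEAD-box helicase gene, had 0 and 0 counts in EV and 12 and 13 in OE (adjusted p = 4.7e-05). MAGEB2 had 3 and 4 counts in EV and 0 and 0 in OE (adjusted p = 0.0038). These counts lie near the floor of 3 per library, and the part of counts from MDA-MB-231, where MAGEB2 was abundant, was not tested. ACRBP had 11 and 15 counts in EV and 1 and 1 in OE (adjusted p = 0.0051), a call lost without the first OE library. DKKL1 had 0 and 0 counts in EV and 2 and 8 in OE (adjusted p = 0.0088), and this call was lost without the second OE library (adjusted p = 0.11). CCDC110 had 5 and 6 counts in EV and 20 and 14 in OE (adjusted p = 0.040), a call lost without any 1 of the 4 libraries, with no filter and under DESeq2.

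**Figure D3:**
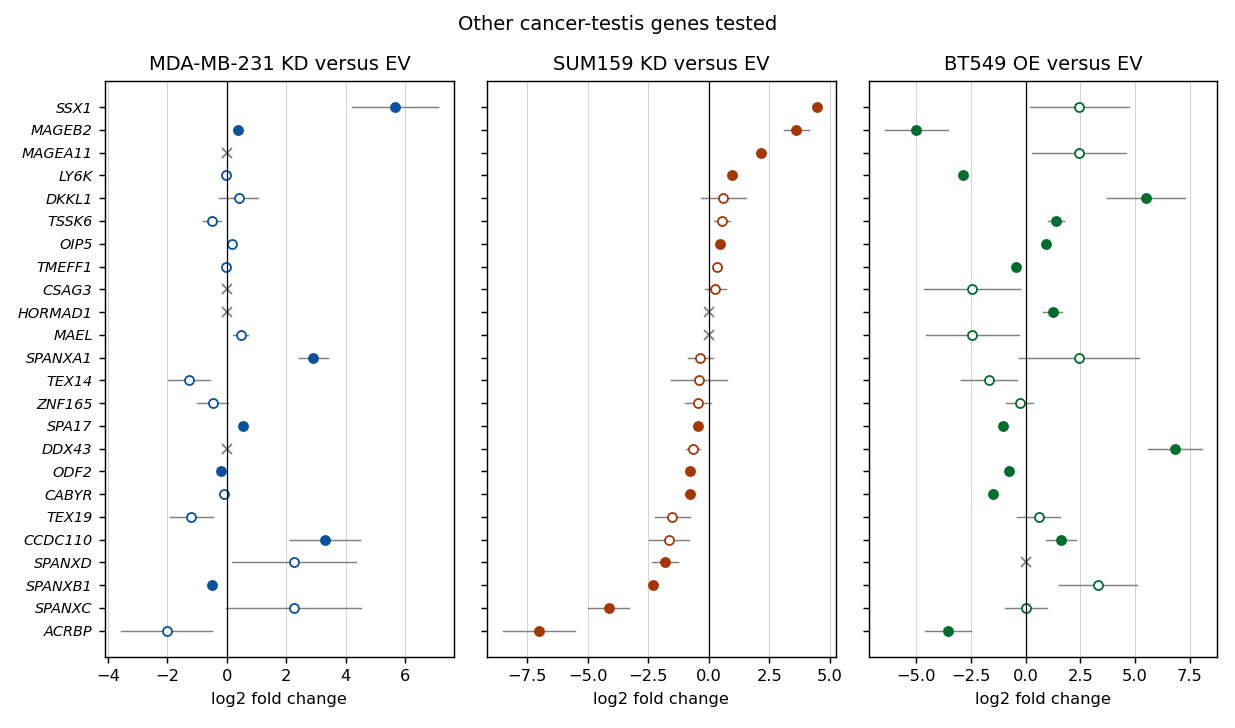
Fitted log2 fold changes (points) with their SE (lines) of the 24 other cancer-testis genes tested, ordered by value in SUM159, for the 3 comparisons. Filled points passed an adjusted p of 0.05 (edgeR) and open points did not. Crosses mark genes at 0 counts in all 4 libraries, a missing mark counting as 0. Every row of HORMAD1 holds such a mark in the MDA-MB-231 and SUM159 columns. SSX1, MAGEB2 and MAGEA11 stand at the top in SUM159 and ACRBP, SPANXC and SPANXB1 at the bottom.

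A list of 33 genes of DNA methylation, Polycomb and heterochromatin was followed because silencing of the family involves them. The list also holds SETD2, CTCF and the TET genes, which oxidize methylated cytosine. Its counts and medians therefore mix genes that act for and against silencing. In BT549 OE, TET1 and TET3 rose and TET2 fell. In SUM159 KD, 22 of the 33 fell and 4 rose, beside 31.4% and 28.6% of all genes. Those that rose were TET1, DNMT3B, MBD2 and RING1. In MDA-MB-231 KD, 9 rose and 6 fell, beside 21.2% and 16.5%, and in BT549 OE, 15 rose and 10 fell, beside 35.6% and 35%. The median log2 fold change of the list was -0.26 in SUM159, 0.01 in MDA-MB-231 and 0.10 in BT549, beside 0, 0 and 0.02 over all genes tested.

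DNMT1, the maintenance DNA methyltransferase, fell in both knockdown lines. It stood at 3179 ± 137 normalized counts in MDA-MB-231 EV and 2235 ± 57.2 in KD (log2 fold change -0.51, SE 0.04, adjusted p = 3.5e-09), and at 2225 ± 42.5 in SUM159 EV and 1465 ± 61.0 in KD (log2 fold change -0.60, SE 0.05, adjusted p = 1.2e-10; SD, n = 2 each). The difference between the lines, -0.10 (SE 0.07), did not pass the test (adjusted p = 0.23). In BT549 OE it was 0.04 (SE 0.05, adjusted p = 0.50). TET1, which oxidizes methylated cytosine, rose in SUM159 KD from 115 ± 5.38 to 506 ± 26.9 normalized counts (log2 fold change 2.14, SE 0.15, adjusted p = 1.2e-11) and in BT549 OE from 23.1 ± 6.04 to 73.5 ± 16.2 (log2 fold change 1.66, SE 0.25, adjusted p = 3.5e-06). In MDA-MB-231 KD TET1 was at 12.4 ± 1.59 against 17.1 ± 0.29 in EV (adjusted p = 0.35), and the difference of the KD effects passed the test (2.61, SE 0.40, adjusted p = 6.5e-06).

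EED, a core subunit of PRC2, fell in SUM159 KD from 667 ± 27.5 to 345 ± 9.67 (log2 fold change -0.95, SE 0.08, adjusted p = 2.8e-10) and was at 1303 in both MDA-MB-231 groups. RNF2, the catalytic subunit of PRC1, fell in SUM159 KD (log2 fold change -1.20, SE 0.23, adjusted p = 7.3e-05). EZH2, the methyltransferase of PRC2, fell by 0.71 in MDA-MB-231 KD (SE 0.09, adjusted p = 6.8e-07) and by 0.18 in SUM159 KD (SE 0.06, adjusted p = 0.017). The SUM159 call was lost with RLE size factors (adjusted p = 0.094), under DESeq2 (adjusted p = 0.15) and without the first EV or the second KD library. HELLS, a chromatin remodeler needed for DNA methylation, fell by 0.52 in MDA-MB-231 KD (SE 0.15, adjusted p = 0.0083), a call lost without the first EV library (adjusted p = 0.0504) or without the second KD library (adjusted p = 0.081), and rose by 1.43 in BT549 OE (SE 0.15, adjusted p = 9.6e-09). TET2 fell by 1.40 in BT549 OE (SE 0.13, adjusted p = 6.7e-10).

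**Figure D4:**
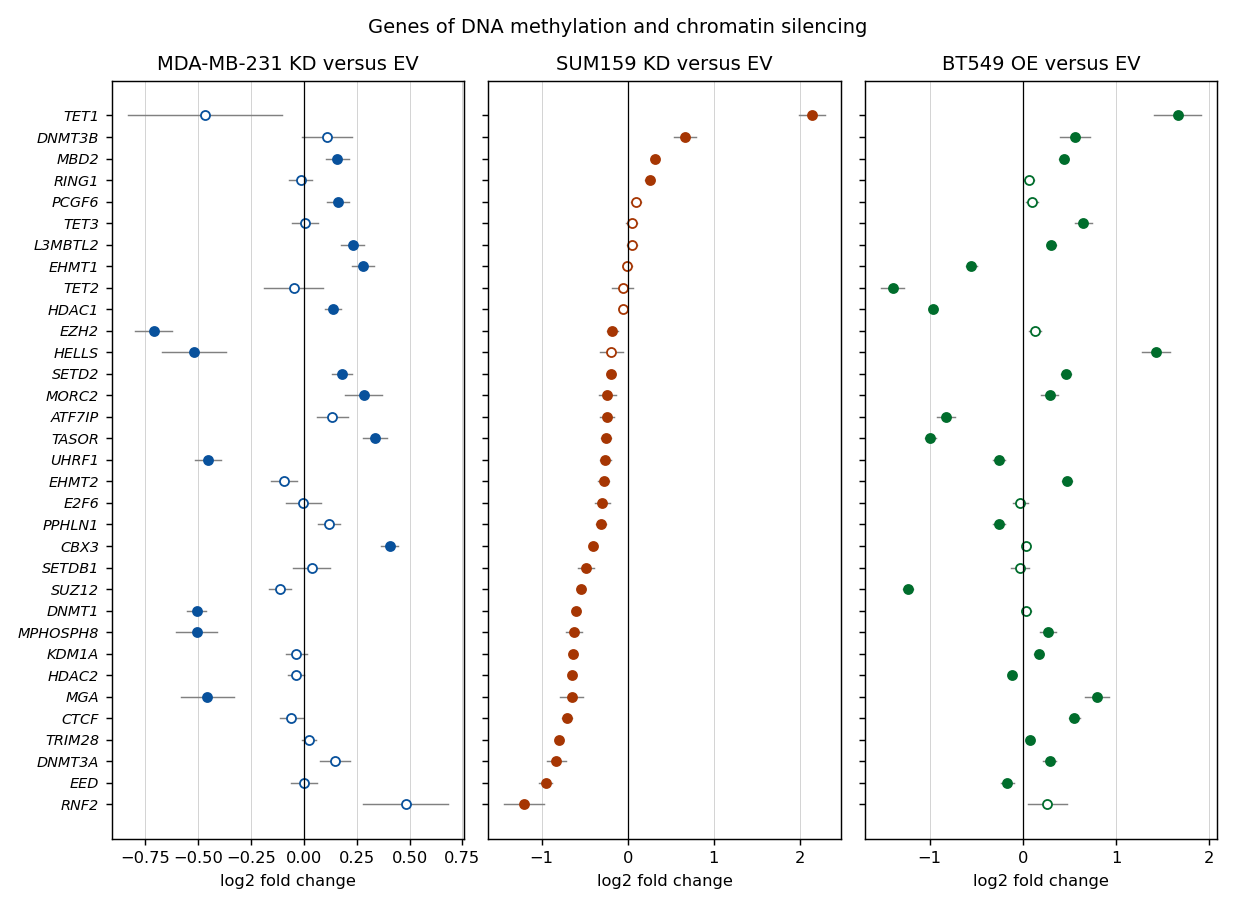
Fitted log2 fold changes (points) with their SE (lines) of 33 genes of DNA methylation and chromatin silencing in the 3 comparisons, ordered by their value in SUM159; filled points passed an adjusted p of 0.05 (edgeR). In SUM159 22 genes lie to the left of 0 and filled, with TET1 at 2.14 on the right.

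The proteins that MAGE and PRAME work with were followed in 17 tested genes, some of which are also in the silencing list. In SUM159 KD 6 rose and 10 fell, in MDA-MB-231 KD 2 rose and 5 fell, and in BT549 OE 9 rose and 5 fell. The shares of all genes that rose and fell were 28.6% and 31.4% in SUM159, 21.2% and 16.5% in MDA-MB-231, and 35.6% and 35% in BT549. The retinoic acid receptor RARB, a target of PRAME repression, had 2 and 0 counts in SUM159 EV and 14 and 10 in KD (adjusted p = 0.0023). In MDA-MB-231 it fell from 135 ± 3.71 to 77.4 ± 3.17 normalized counts (log2 fold change -0.80, SE 0.29, adjusted p = 0.033), a call lost without any 1 of the 4 libraries and under DESeq2 (adjusted p = 0.079). PRKAA2, an AMPK catalytic subunit, rose from 13.1 ± 2.89 to 28.0 ± 1.71 in SUM159 KD (log2 fold change 1.09, adjusted p = 0.0050), lost without the second EV library, and had 25 and 32 counts in BT549 EV and 0 and 0 in OE (adjusted p = 2.6e-08). The more abundant AMPK subunit gene PRKAA1 went the other way. It fell from 1476 ± 74.95 to 825 ± 28.6 in SUM159 KD (log2 fold change -0.84, SE 0.05, adjusted p = 3.3e-12). In BT549 OE it rose from 875 ± 5.50 to 1389 ± 43.7 (log2 fold change 0.67, SE 0.06, adjusted p = 2.4e-10). Its log2 fold change in MDA-MB-231 KD was 0.01 (adjusted p = 0.92). RARB rose by 1.74 in BT549 OE (SE 0.55, adjusted p = 0.0071), a call lost without the second EV library (adjusted p = 0.12) or the second OE library (adjusted p = 0.097). DCAF12, the receptor through which CUL4 ligases act on MAGE proteins, fell by 0.46 in MDA-MB-231 KD (SE 0.04, adjusted p = 2.6e-09). ELOB, the adaptor of CUL2 ligases, rose by 1.10 in BT549 OE (SE 0.05, adjusted p = 2.0e-15). In the same comparison ELOC rose by 0.75 (SE 0.04, adjusted p = 9.9e-15) and RBX1 by 0.93 (SE 0.06, adjusted p = 9.7e-13). CUL2 itself fell by 0.81 (SE 0.09, adjusted p = 1.5e-08).

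TRIM28, the ligase partner of MAGEA3, is named here after its values were seen. It stood at 7040 ± 93.7 normalized counts in SUM159 EV and 4038 ± 68.8 in KD (log2 fold change -0.80, SE 0.03, adjusted p = 5.8e-16; SD, n = 2 each). In MDA-MB-231 it was 5483 ± 47.8 in EV and 5576 ± 84.9 in KD (adjusted p = 0.61).

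Type II MAGE genes, the widely expressed relatives that are not confined to germ cells, served as a comparison within the family, with 8 tested. Every row of MAGED4 holds a missing mark in the MDA-MB-231 and SUM159 columns, counted as 0. In SUM159 KD 2 rose and 1 fell, in MDA-MB-231 KD 1 rose and 1 fell, and in BT549 OE 4 rose and 1 fell. Of all genes, 28.6% rose and 31.4% fell in SUM159, 21.2% and 16.5% in MDA-MB-231, and 35.6% and 35% in BT549. MAGEF1 fell in SUM159 KD from 1661 ± 1.79 to 692 ± 23.9 normalized counts (log2 fold change -1.26, SE 0.06, adjusted p = 7.0e-15) and rose in BT549 OE from 886 ± 17.2 to 1789 ± 19.0 (log2 fold change 1.01, SE 0.06, adjusted p = 1.6e-13). MAGEH1 fell by 0.74 in MDA-MB-231 KD (SE 0.10, adjusted p = 3.8e-06), rose by 0.68 in SUM159 KD (SE 0.10, adjusted p = 1.6e-06) and rose from 8.27 ± 3.96 to 81.1 ± 5.87 normalized counts in BT549 OE (adjusted p = 1.3e-09). MAGED1 rose by 0.45 in SUM159 KD (SE 0.07, adjusted p = 5.1e-06), and MAGED4 rose in BT549 OE from 43.5 ± 5.80 to 146 ± 5.42 (log2 fold change 1.74, SE 0.35, adjusted p = 0.00019), where its copy MAGED4B may share its reads. NSMCE3 rose by 0.19 in MDA-MB-231 KD (SE 0.07, adjusted p = 0.029), a call lost without any 1 of the 4 libraries and with library size as the only scaling.

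Genes that start within 500 kb of a measured member numbered 250, of which 30 had a transcript in the table and 19 were tested. In SUM159 KD 6 of them rose and 2 fell, in MDA-MB-231 KD 3 rose and 2 fell, and in BT549 OE 6 rose and 8 fell. Over all genes the shares that rose were 28.6%, 21.2% and 35.6%, and the shares that fell 31.4%, 16.5% and 35%, in that order of lines. Near the XAGE1 pair, FAM156A rose by 0.83 (SE 0.10, adjusted p = 7.5e-08) and FAM156B by 0.68 (SE 0.12, adjusted p = 4.1e-05) in SUM159 KD on the log2 scale, both less than the pair itself. These genes are copies of each other, and their reads may be shared. PPP1R3F, 426 kb from PAGE1, rose by 0.71 in SUM159 KD (SE 0.17, adjusted p = 0.0011) and by 0.44 in MDA-MB-231 KD (SE 0.08, adjusted p = 0.00020), where PAGE1 was at 0. In MDA-MB-231 KD, SYP fell from 22.7 ± 4.11 to 9.96 ± 1.82 normalized counts (adjusted p = 0.0096), lost without the second EV or the second KD library and with each line fitted alone (adjusted p = 0.0504), and FAM156B rose by 0.34 (adjusted p = 0.0082), lost without either of the same libraries and under DESeq2 (adjusted p = 0.088). In BT549 OE, PNMA6A fell by 1.61 (SE 0.17, adjusted p = 3.6e-08) and USP27X-DT rose by 1.59 (SE 0.59, adjusted p = 0.021), the latter lost without the second EV or the first OE library.

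**Figure D5:**
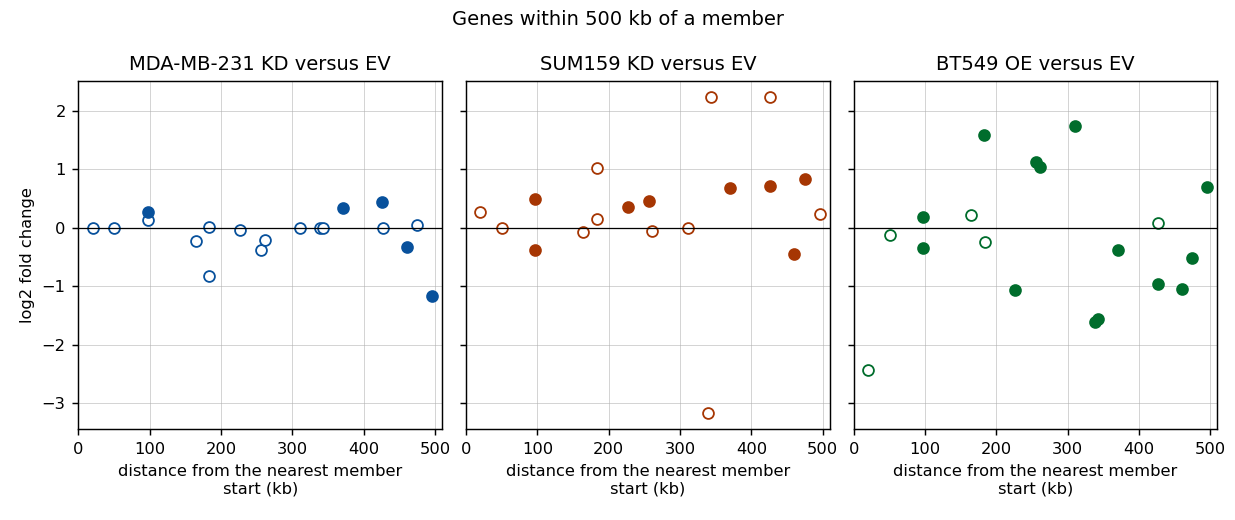
Log2 fold changes of the 19 tested genes within 500 kb of a measured member, against distance from the nearest member's start (kb), in the 3 comparisons. Filled points passed an adjusted p of 0.05 (edgeR) and open points did not. Genes at 0 counts in both groups lie at 0, a missing mark counting as 0. In SUM159 the 6 genes that rose lie between 0 and 1 on the log2 scale.

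The genes whose levels ran most like those of a member over the 12 libraries were named by Pearson's r on log2 CPM, counts scaled to library size. These values describe 12 libraries that fall into 3 cell lines, and they mostly follow the differences between lines. For PAGE1 they were ENSG00000289297 (r = 0.994), PRKRIP1 (0.990) and PXDC1 (0.990). PXDC1 stood at 1171 normalized counts in SUM159 EV and 2927 in KD, and at 756 to 962 in the 4 other groups. For XAGE1A they were ZNF488, WIPF1 and MSRB3, and for XAGE1B MSRB3, PATJ and CCDC9B, with r from 0.995 to 0.997. For MAGEA3 they were TBL1XR1, FOXC2 and RPA3, for MAGEA12 UBE2SP1, GALNT5 and TBL1XR1, and for PRAME TRIM46, B3GNT9 and ARHGAP33, with r from 0.981 to 0.997. Between 26 genes (PAGE1) and 307 genes (XAGE1A) had an r above 0.95, so the named ones do not stand alone.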

How the data were processed

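Polysome RNA of 3 cell lines was sequenced in 12 libraries. By the study's methods the authors used Trimmomatic for trimming, HISAT2 for alignment (GRCh38) and SAMtools to remove duplicates. Sources differ on the kit, with rRNA depletion in the methods and oligo(dT) selection in the labels. The authors deposited expected counts per Ensembl transcript, not normalized. The counting tool is not given in the sources used here. In the MDA-MB-231 and SUM159 columns 5.08% of rows hold a missing mark, counted as 0.

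Transcripts were matched to GENCODE 44 (79.6% of rows), summed per symbol and rounded with pandas 2.3.3. Genes passing filterByExpr (16538) were scaled by TMM and fitted with edgeR 4.0.16 (quasi-likelihood, 1 model of 6 group means, 6 residual degrees of freedom) in R 4.3.3, and called at an adjusted p under 0.05 (Benjamini-Hochberg). The SE given for edgeR is the absolute log2 fold change divided by the square root of the F statistic. It is therefore derived from the test and is not firm where counts are near 0. The fit was tested on simulated data. DESeq2 1.42.0 was an alternative. TPM was computed from the deposited expected counts and GENCODE transcript lengths. Libraries held 22954226 to 27434677 counts. Where a library had none, up to 3 counts are allowed for, and folds against such groups use that floor per library. Intervals are exact binomial (95%) and, like floors, cover counting error only.

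The members, gene lists and tests were chosen with earlier results of these data known. Beyond the members, the text names by rule, per comparison, the called genes with the largest log2 fold changes: up to 6 other cancer-testis genes (mean of at least 10 normalized counts in some group) and up to 3 each of the silencing, partner, type II MAGE and neighboring genes (within 500 kb), and for each member the 3 genes with the highest r.
Marker genes, SPANXD, TRIM28, PRKAA1, CUL2, ELOC, RBX1, HOXC10, TCF4, DNMT3B, MBD2, RING1, TET3, SETD2 and CTCF lie outside that rule and were named after their values were seen.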

Additional observations from a re-analysis of the deposited data

Results flagged for a closer look

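For 3 of the 6 members every KD library lay above both EV libraries in one line and below them in the other, as did 24.2% of all 16538 genes tested. The members were chosen on these values, and the differences were not tested. On the log2 scale, with group means no lower than 3 counts per library, the KD effect in SUM159 minus that in MDA-MB-231 was -3.53 for MAGEA12 (-0.87 and 2.66), -0.56 for MAGEA3 (-0.30 and 0.26) and 1.79 for XAGE1A (1.66 and -0.12). In MDA-MB-231 the MAGEA12 and MAGEA3 values rest on 37 and 7 counts. The 3 and 4 MAGEA3 counts are at the level that a count of 0 allows, so no direction is read for MAGEA3 in that line.

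Another 4 named genes outside the members passed the threshold in both lines in opposite directions, and the difference itself passed the interaction test of edgeR. SPA17 differed by -1.02 (adjusted p = 6.5e-09), rising by 0.55 in MDA-MB-231 and falling by 0.47 in SUM159. MAGEH1 differed by 1.42 (adjusted p = 9.8e-09), with -0.74 in MDA-MB-231 and 0.68 in SUM159. RARB differed by 4.13 (adjusted p = 0.00055), with -0.80 in MDA-MB-231 and 3.32 in SUM159, the latter fitted from 2 and 0 counts in EV and the former lost without any 1 of the 4 MDA-MB-231 libraries and under DESeq2. CD24, given as a marker, differed by 4.57 (adjusted p = 8.4e-21), with -0.37 in MDA-MB-231 and 4.20 in SUM159.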

How the results depend on the processing

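The number of members at least 2-fold apart was 1 in MDA-MB-231, 4 in SUM159 and 1 in BT549, and leaving out each library in turn left these at 1, 4 and 1. With the XAGE1 copies summed, the SUM159 count was 3. That setting was not run for the gene lists, which do not hold the copies. Other cancer-testis genes called numbered 7 in MDA-MB-231, 12 in SUM159 and 13 in BT549 (4 to 6, 11 to 12 and 9 to 12 without each library), the 4 coming without the first MDA-MB-231 KD library. Silencing and partner genes called numbered 21, 39 and 37 (14 to 19, 35 to 37 and 32 to 36 without each library, which leaves an arm with 1 sample assumed to vary like the others). RLE size factors, library size alone, a replicate block, no filter, each line fitted alone, DESeq2, marked transcripts left out and version matching gave 6 to 8, 11 to 14 and 11 to 13 of the cancer-testis genes. With library size alone, 36.7% of all MDA-MB-231 calls were higher, against 56.2% with TMM, with a median shift of -0.09. XAGE1B in MDA-MB-231 went from -0.16 to 0.000354 without the second KD library. The settings were run for members above 3 counts per library in both groups and for most genes named in a comparison, not for every reported value. None of these named genes turned its sign. For members, a turn was counted only where the fold change exceeded the spread between libraries, and none was counted. Replicate numbers did not pair the libraries (correlations of same-numbered deviations 0.003, -0.03 and 0.02). A replicate block gave 6, 12 and 12 other cancer-testis genes, 22, 39 and 37 silencing and partner genes, and 1, 4 and 1 members. The calls of CCDC110 and RARB in MDA-MB-231 and of CCDC110 in BT549 were lost with it (adjusted p = 0.051, 0.056 and 0.066). Low counts limit MAGEA3, MAGEA12 and PRAME outside their main lines, and reads from the shared sequence cannot separate XAGE1A from XAGE1B.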
